A study of Mus musculus with 2 samples.

Results

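The genes described here are the WNT ligands *Wnt4*, *Wnt5a*, *Wnt5b*, *Wnt6*, *Wnt7b*, *Wnt9b* and *Wnt11* together with *Porcn* and *Wls*, which encode proteins that WNT secretion needs. They were chosen by gene name, as all array probes that carry 1 of these 9 names: 10 probes, of 39429 probes under 29924 names. The RNA came from ureters of wild-type NMRI mouse embryos explanted at E11.5, sex not determined, and kept for 18 h in serum-free culture with either 10 µM IWP-2 or DMSO, the solvent, alone. Each of 2 two-colour arrays compared a pool of treated ureters with a pool of control ureters. On replicate 1 the treated RNA was labelled with AlexaFluor647 and the control RNA with AlexaFluor555, and on replicate 2 the other way round. Every value is thus the mean of a pool of whole explants, in which epithelium and mesenchyme were not separated, and fewer cells of a type and less RNA per cell cannot be told apart.

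WNT proteins are secreted signals that carry a fatty acid. PORCN, a membrane-bound acyltransferase of the endoplasmic reticulum, attaches this lipid, and the carrier protein WLS then takes the lipidated ligand to the cell surface. Canonical ligands bind Frizzled and LRP co-receptors and stabilise beta-catenin, which activates target genes together with TCF and LEF factors, whereas WNT5A mostly acts through non-canonical routes. In the early ureter, *Wnt7b* and *Wnt9b* are known as epithelial ligands that signal to the surrounding mesenchyme. IWP-2 inhibits the PORCN enzyme, not its gene, so the arrays ask how the RNA of the ligands and of their secretion genes responds when lipidation is blocked.

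Of the 9 genes, *Wnt5a* changed: its signal fell 2.32-fold in IWP-2 (log2 change -1.21 ± 0.09, SD, n = 2 arrays). The other 6 ligands were measured lower in IWP-2 on both arrays, by mean log2 values between -0.49 for *Wnt5b* and -0.21 for *Wnt7b*, and none of them passed the test; 27.5% of all genes tested were lower on both arrays. *Porcn* and *Wls* had opposite signs on the arrays, with means of 0.09 and 0.00. Of 20119 genes tested, 1.15% were called lower and 0.611% higher at an FDR of 0.05 (limma, Benjamini-Hochberg adjustment), against 1 of the 9 genes called lower and 0 called higher.

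Each gene has 1 or 2 probes of 60 bases, and the value tested rests on 1 probe, so the probes are shown first. Positions are those given in the deposited files for mouse build mm9. Exon and UTR annotation of that build was not used here, and at most 30 bases of a probe that may lie in a UTR are printed.

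The *Wnt5b* probe lies at chr6:119382550-119382609 on the minus strand and is shown because *Wnt5b* is the closest relative of *Wnt5a*.
*Wnt5b*, bases 1 to 30: gactgtcatctctgcccacatgtacagcgt
*Wnt4* has a pair of probes on the plus strand, which give separate readings of 1 gene. The upstream probe at chr4:136851690-136852258 has 60 bases that span 569 bases of the genome, so it crosses an intron and is printed whole. The downstream probe at chr4:136855342-136855401 was the brighter of them and entered the test.
*Wnt4*, upstream probe: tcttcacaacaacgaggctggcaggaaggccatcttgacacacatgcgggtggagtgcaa
*Wnt4*, downstream probe, bases 31 to 60: acggcatagtctgagatgcacgataaaaat
The probes of *Wnt6* (chr1:74831461-74831520, plus strand), *Wnt7b* (chr15:85366896-85366955, minus strand) and *Porcn* (chrX:7770977-7771036, minus strand) hold AATAAA, the letters of the common polyadenylation signal, shown in capitals. This motif was searched on the probe strand only, and 12.6% of all probes hold it. A match describes the letters and does not show where the transcript ends.
*Wnt6*, bases 31 to 60: gtttagtatcAATAAAgacatttaaatcca
*Wnt7b*, bases 31 to 60: tgtgaAATAAAtatactgacacagccccat
*Porcn*, bases 31 to 60: ttattgtcgAATAAAagtagaacttacaca
The remaining probes lie at chr11:103588882-103588941 (*Wnt9b*, minus strand), chr7:106001985-106002045 (*Wnt11*, plus strand) and chr3:159597867-159597926 (*Wls*, plus strand).

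All 9 genes were well detected. Each probe was printed 4 times per array, which gave 80 spots, and in all 160 readings of a spot in 1 colour the signal was well above background. In the control channel the raw signal was between 49.2 and 1267 times the local background. By processed intensity, which the scanner software had corrected for background and dye, the control signals of the 10 probes were above those of 67.2% to 96.0% of probes. These percentiles describe probes, and brightness is not compared between genes as an RNA level because probes differ in how strongly they bind. No spot on either array was saturated, and 4 of the 80 spots were marked as outliers and left out.

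*Wnt5a* encodes a ligand known for planar polarity and tissue outgrowth, made mainly by mesenchyme. Its processed intensity was 657.5 in the control pool and 275.9 in the treated pool of replicate 1, and 728.3 and 312.1 on replicate 2. The treated pools were both far below the control pools, and the groups did not overlap. How many of all genes have intensities separated in this way was not counted, here or for the ligands below. The related condition of a ratio below 0 on both arrays held for 27.5% of all genes. The log2 change was -1.27 on replicate 1 and -1.15 on replicate 2 (SE 0.10, 95% confidence interval -1.45 to -0.97, adjusted p = 0.00521, limma). The 8 spots ranged from -1.32 to -1.10, so every spot of both arrays showed a decrease by more than 2-fold. Only 0.239% of tested genes had a lower mean change. On each array *Wnt5a* lay below each of the other 6 ligands, by at least 0.64 on the log2 scale on replicate 2, where *Wnt5b* came nearest to it. These differences between genes were not tested. *Wnt5a* was also the 1 member, of 9, with an intensity over 100 and a decrease by at least 2-fold on both arrays, the kind of filter the study used; 0.344% of 14549 sufficiently bright genes passed it as lower and 0.0756% as higher. With ratios centred on each array's median in place of loess, the fit gave an adjusted p of 0.0577 at a log2 change of -1.24, and with the channels fitted apart and a term for the dye, 0.474.

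**Figure D1:**
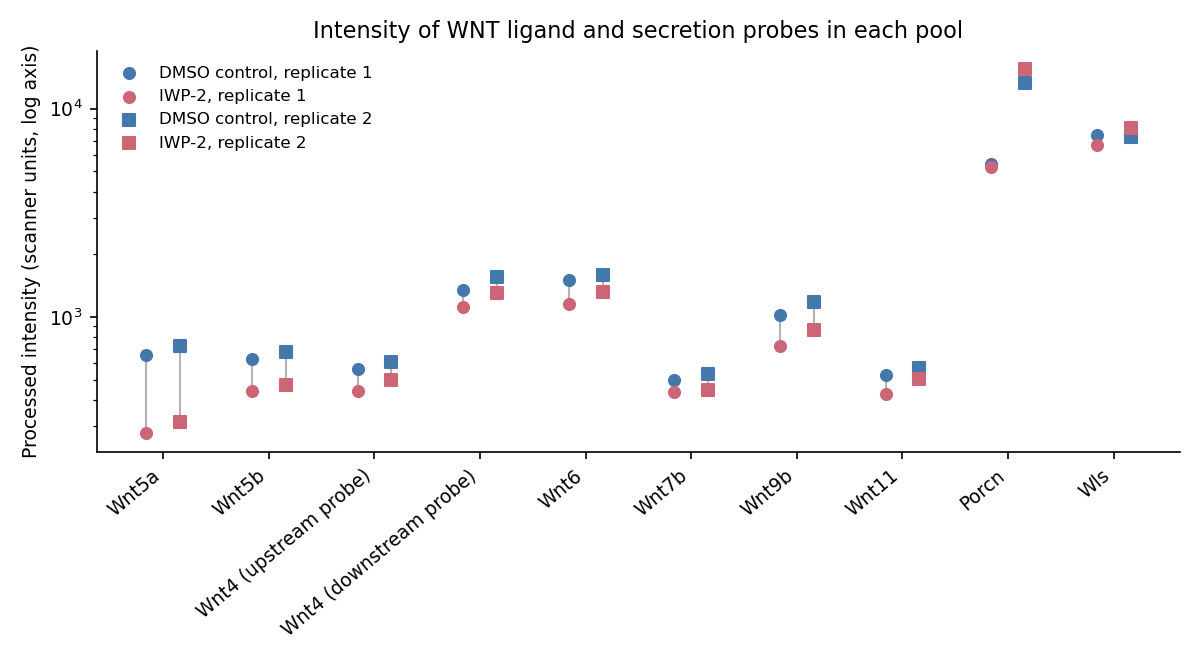
Processed intensity (scanner units, logarithmic axis) of each probe in the 4 pools; circles are replicate 1, squares replicate 2, blue DMSO and red IWP-2, and a grey line joins the pools of 1 array. *Wnt5a* has the longest lines, from 657.5 to 275.9 and from 728.3 to 312.1, while the *Porcn* points of replicate 2 lie well above those of replicate 1.

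The other 6 ligands had smaller mean changes, and differences among them were not tested. Of *Wnt5b*, which mostly signals without beta-catenin like its relative, the intensity was 626.9 in the control and 441.2 in the treated pool of replicate 1, and 679.8 and 472.5 on replicate 2. Both treated values were below both control values, with a log2 change of -0.49 ± 0.03 (SD, n = 2 arrays) and an adjusted p of 0.073 (limma). *Wnt5b* passed the threshold with the mean over all kept probes of a gene (adjusted p = 0.0491) and with a trended and robust prior (0.0489). It also passed from the deposited series table (0.0419), so its call depended on the setting. The mean over probes left the value of *Wnt5b*, which has 1 probe, unchanged and altered only other genes. The series table is rounded to 1 decimal and reads a decrease by 1.4-fold on both arrays, which hides the spread between them.

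*Wnt9b* encodes a canonical ligand of the ureteric epithelium that is required for nephron induction. Its intensity went from 1025 in the control to 723.6 in the treated pool on replicate 1 and from 1175 to 868.4 on replicate 2. Here too both treated values were under both control values, and the arrays differed by 0.02 in log2 change, the smallest difference of the 9 genes. The mean was -0.45 ± 0.01 (SD, n = 2 arrays, adjusted p = 0.0914, limma). *Wnt9b* passed with the trended and robust prior (0.0498) and from the series table (0.0419), whose rounded values read as a decrease by 1.4-fold on both arrays. *Wnt7b*, the other epithelial ligand that signals to the ureteric mesenchyme, had 499.3 and 438.0 on replicate 1 and 531.6 and 446.8 on replicate 2, in the order control and treated. Its mean change of -0.21 (95% confidence interval -0.44 to 0.03, adjusted p = 0.462, limma) was the smallest of the 7 ligands, and no alternative brought it past the threshold.

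*Wnt6*, a ligand made by the ureteric bud and other epithelia, had intensities of 1500 in the control and 1156 in the treated pool of replicate 1, and of 1593 and 1320 on replicate 2. Its groups did not overlap, and the log2 change was -0.31 ± 0.04 (SD, n = 2 arrays; adjusted p = 0.228, limma). *Wnt4* drives the mesenchymal to epithelial transition of nephron precursors in the kidney. Its downstream probe read 1348 and 1122 on replicate 1 and 1557 and 1300 on replicate 2, again in the order control and treated. The treated value of replicate 2 was thus under the control value of replicate 1, and the log2 changes were -0.23 and -0.27 (adjusted p = 0.343, limma). The upstream probe read 561.6 and 442.1, then 606.1 and 499.9, with log2 changes of -0.42 and -0.24. Both probes of the gene were therefore lower on both arrays, and over all probes neither passed (adjusted p = 0.362 downstream and 0.226 upstream, limma). *Wnt4* and *Wnt6* passed only when the series table was tested (both 0.0419), whose values are rounded to 1 decimal, so that both genes read as a decrease by 1.2-fold on both arrays.

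*Wnt11*, a non-canonical ligand of the ureteric bud tips, had intensities of 523.7 and 425.3 on replicate 1 and of 567.3 and 501.4 on replicate 2, control first. Its groups did not overlap, but its arrays disagreed most among the ligands, with log2 changes of -0.35 and -0.14. The mean was -0.25 (95% confidence interval -0.50 to 0.01, adjusted p = 0.392, limma).

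Across the 7 ligands, all 62 spots used had a log2 ratio below 0. The median change of the ligands was -0.31 where that of all genes was 0.00. At an unadjusted p under 0.05 (limma), 5 of the 9 genes were lower (*Wnt4*, *Wnt5a*, *Wnt5b*, *Wnt6* and *Wnt9b*), where 4.74% of all genes were. The members were chosen with earlier results of these data known, so these counts describe the genes and do not test them as a group. Between arrays the ligands' SD ran from 0.01 to 0.14, against a median of 0.11 over all genes. It was below that median for 6 ligands and above it for *Wnt11*.

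**Figure D2:**
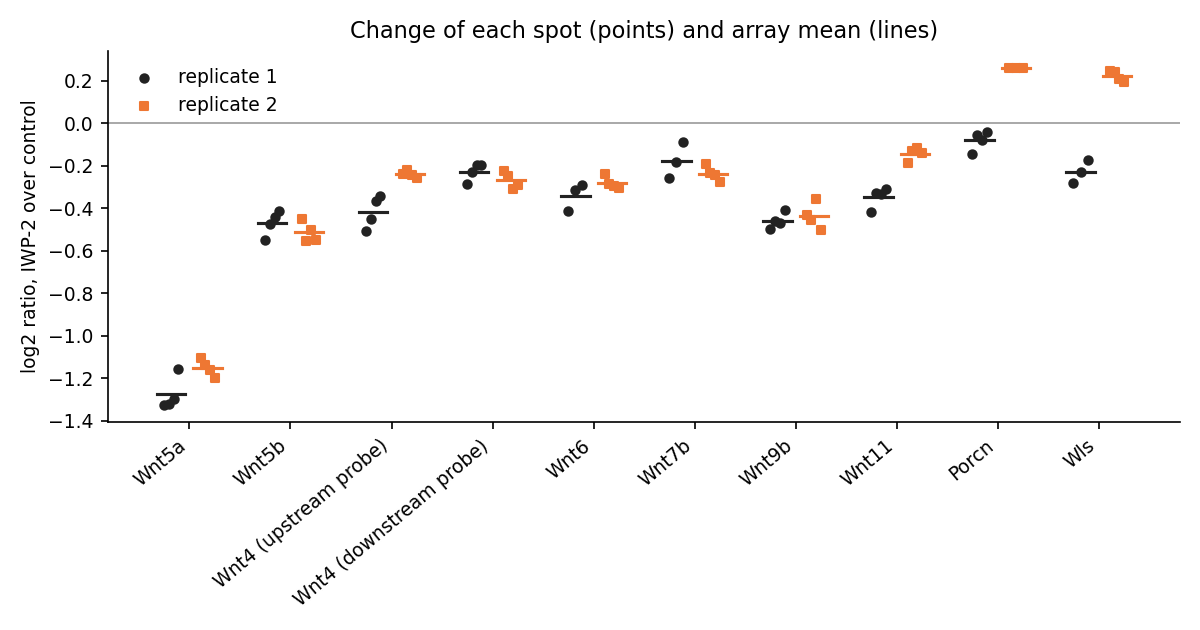
log2 ratio of IWP-2 over control for each spot used; black circles are replicate 1, orange squares replicate 2 and short lines the mean of an array. Every ligand spot lies under 0, the *Wnt5a* spots lie between -1.32 and -1.10, and *Porcn* and *Wls* lie under 0 on replicate 1 and above 0 on replicate 2.

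*Porcn*, the gene of the enzyme that IWP-2 inhibits, was bright in all pools. Its intensity was 5422 in the control and 5264 in the treated pool of replicate 1, and 13250 and 15520 on replicate 2. The treated pool was thus slightly lower on the first array and higher on the second, with log2 changes of -0.08 and 0.26 and a mean of 0.09 (95% confidence interval -0.19 to 0.37, adjusted p = 0.901, limma). The interval leaves room for a decrease to 0.875 or an increase to 1.30 of the control level. The level itself differed between the arrays: averaged over both colours, the probe was 2.93 times as bright on replicate 2, an excess that 0.194% of tested genes reached, while the ligand probes were 1.09 to 1.22 times as bright. On replicate 2 the 3 *Porcn* spots used had control intensities of 12595, 13776 and 13421, whereas the fourth, marked as an outlier, had 5709.5, near the 4840.8 to 6599.1 of replicate 1. The log2 ratio of that spot was 0.28, like the 0.26 of the others. Whether the pools of replicate 2 held more *Porcn* RNA or the spots differed was not tested.

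*Wls*, the gene of the carrier that escorts lipidated WNT proteins, read 7480 in the control and 6659 in the treated pool of replicate 1, and 7345 and 8124 on replicate 2. The treated pools lay on either side of the control pools. The changes of -0.23 and 0.22 gave a mean of 0.00 (95% confidence interval -0.32 to 0.31, adjusted p = 0.999, limma). Opposite signs on the arrays were found for 44.0% of all genes. For *Porcn* and *Wls* the channel labelled with AlexaFluor555 was the higher one on both arrays after loess, and with median centring it was the lower one. No gene was called for a change that follows the dye (limma, 0 of 20119, with 2.18% at an unadjusted p under 0.05), *Porcn* and *Wls* included.

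**Figure D3:**
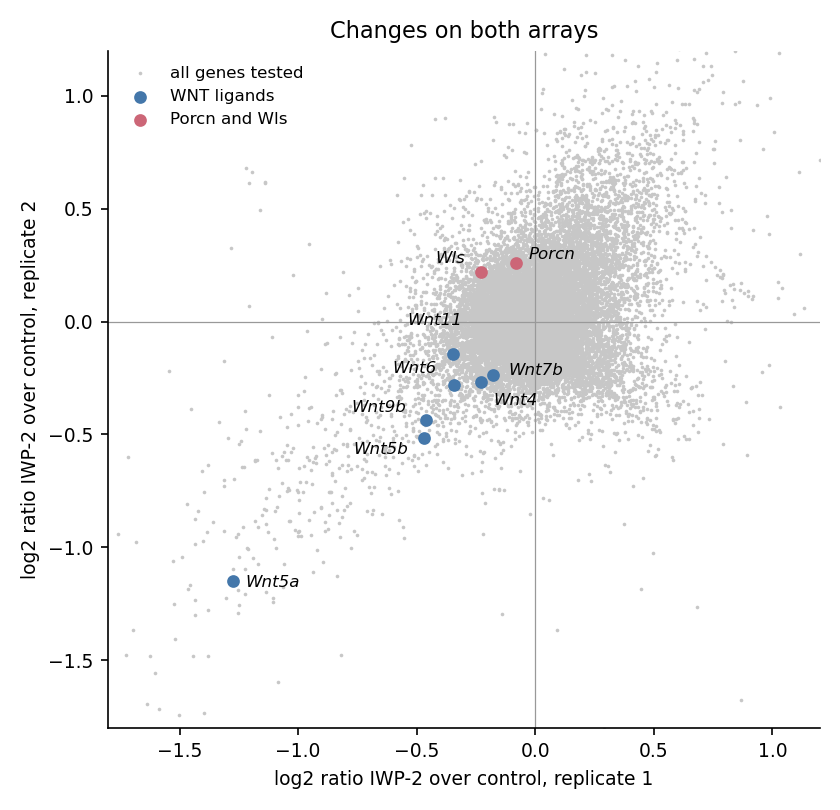
log2 ratio of IWP-2 over control on replicate 1 (horizontal) and replicate 2 (vertical) for the genes tested, in grey, with the 7 ligands in blue and *Porcn* and *Wls* in red; 81 genes lie outside the axes. The ligands all lie at the lower left, with *Wnt5a* at -1.27 and -1.15, and *Porcn* and *Wls* lie in the upper left.

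The array has probes for 12 further WNT ligands. Of these, *Wnt2*, *Wnt2b*, *Wnt3*, *Wnt3a*, *Wnt7a*, *Wnt8a* and *Wnt8b* were not well above background by the rule used and were not tested. Their raw signals, taken at the brightest probe of each, lay between 0.877 and 2.24 times the local background. *Wnt8b* had 2 of 4 spots well above background in both channels on both arrays, and *Wnt2* had 4 of 4 control spots on replicate 2 but 0 on replicate 1. The other 5 were tested, 4 of them were higher on both arrays, as were 28.5% of all genes, and 0 were lower on both. Their mean changes had a median of 0.10 and 0 passed the FDR. The highest was *Wnt10b* (0.34 and 0.63, mean 0.48, adjusted p = 0.111, limma), a canonical ligand whose control intensity was only 6.74 on replicate 1 and 20.2 on replicate 2, close to background. *Wnt1* had 0.32 and -0.11, *Wnt9a* 0.13 and 0.22, *Wnt10a* 0.05 and 0.04, and *Wnt16* 0.00 and 0.12.

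**Figure D4:**
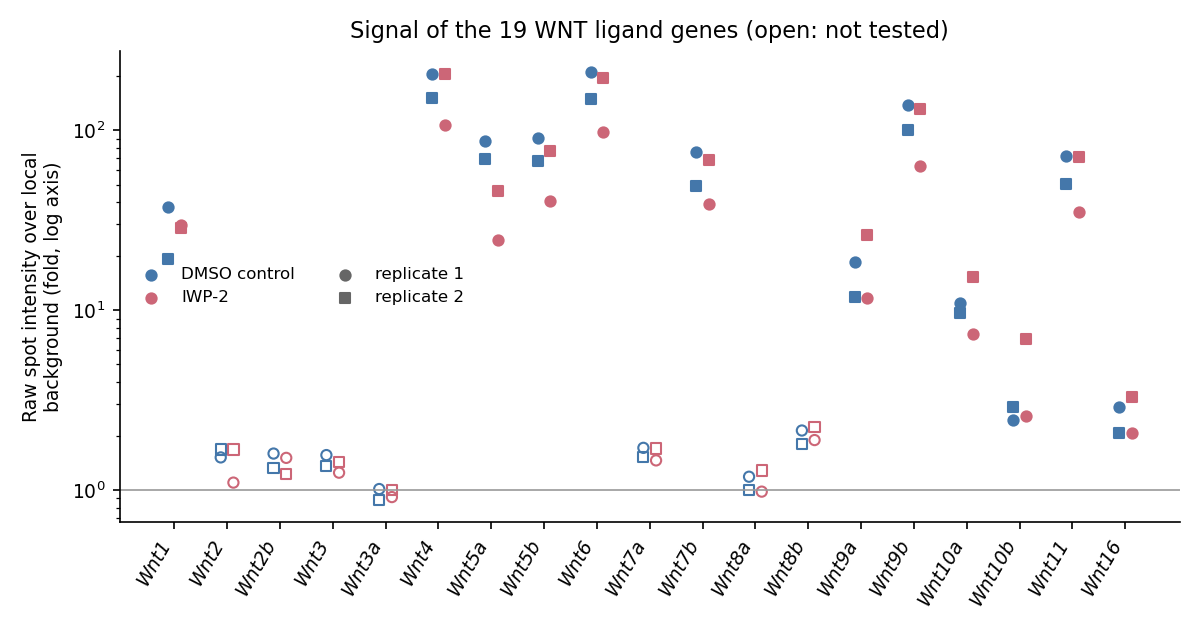
Raw spot intensity over local background (logarithmic axis; the line at 1 is background) for the brightest probe of each of 19 WNT ligand genes; blue is DMSO, red IWP-2, circles replicate 1, squares replicate 2, and open symbols mark genes that were not tested. The open symbols lie between 0.877 and 2.24, and of the tested genes *Wnt10b* and *Wnt16* lie nearest to them.

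Genes that act on WNT proteins beside *Porcn* and *Wls* were described by lists. A list of 14 handling genes covers desaturases that supply the fatty acid (*Scd1*, *Scd2*), cargo receptors of the early secretory route (*Tmed2*, *Tmed5*, *Tmed10*), the retromer and its partner that return WLS from endosomes (*Vps26a*, *Vps29*, *Vps35*, *Snx3*), extracellular enzymes that inactivate WNT (*Notum*, *Trabd2b*) and glypicans, which bind it at the cell surface (*Gpc3*, *Gpc4*, *Gpc6*). Of these 14, 0 passed, 4 were lower on both arrays, where 27.5% of all genes were, and 5 were higher on both, where 28.5% were, and the median change was 0.03. The lowest were *Gpc4* (-0.77 and -0.40, mean -0.58) and *Trabd2b* (-0.67 and -0.40, mean -0.54), both with an adjusted p of 0.0803 (limma), and the highest was *Tmed5* at 0.20. The 4 lower on both arrays were *Gpc3*, *Gpc4*, *Gpc6* and *Trabd2b*, and *Notum* had 0.07 and -0.26. Of 6 relatives of *Porcn* from the same membrane-bound acyltransferase family, 0 passed and 3 were lower and 3 higher on both arrays (27.5% and 28.5% of all genes), from -0.21 for *Mboat4*, which acylates ghrelin, to 0.31 for *Mboat1*, a lysophospholipid acyltransferase. *Hhat*, which lipidates hedgehog proteins, had -0.16 and -0.13 (adjusted p = 0.68, limma).

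The 8 genes taken as a readout of canonical WNT signalling are mostly targets of the pathway or parts of its feedback. Their median change was -0.95, 7 of 8 were lower on both arrays and 5 of 8 fell past the FDR, where 1.15% of all genes did. These 5 were *Nkd1*, an antagonist of Dishevelled (-1.31), *Apcdd1*, a WNT inhibitor of the membrane (-1.27), the transcription factor *Sp5* (-1.12), and *Tcf7* and *Lef1*, which are partners of beta-catenin (both -0.89). *Axin2*, the feedback scaffold, had -1.38 and -0.64 with an adjusted p of 0.0502 (limma), just outside the threshold. The ubiquitin ligase gene *Znrf3* had a mean of -0.25 and its relative *Rnf43* of 0.00. The list thus ran from -1.31 to 0.00, a range so wide that it holds the mean of every ligand. The mean of *Wnt5a* lay among those of the 5 called genes, and the other ligands lay between these and *Rnf43*. Likeness to the readout genes was not tested.

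**Figure D5:**
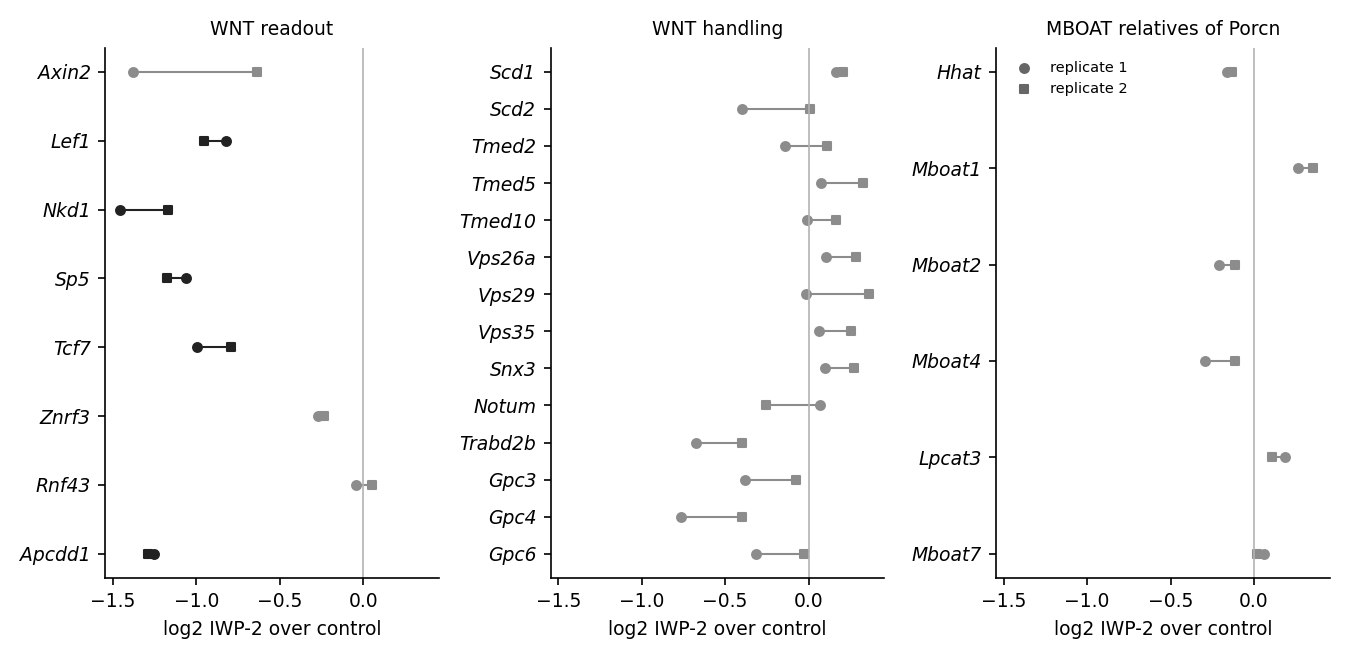
log2 ratio of IWP-2 over control on replicate 1 (circle) and replicate 2 (square) for the genes of 3 lists, joined by a line; black marks genes with an adjusted p under 0.05 (limma) and grey the others. The 5 black pairs are in the readout list, at means from -1.31 to -0.89, and the means of the handling genes and of the relatives of *Porcn* lie between -0.58 and 0.31.

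The tissue of origin bears on the ligands because some are made by epithelium and others by mesenchyme. Beside the all-gene shares of 27.5% lower and 28.5% higher on both arrays, the markers of each cell type were counted. The 10 markers of ureteric epithelium were all detected and had a median change of 0.10, with 1 lower and 4 higher on both arrays and 0 past the FDR. The lowest was *Shh*, the hedgehog ligand of the epithelium (-1.33 and -0.44, mean -0.89, adjusted p = 0.0994, limma), and the highest *Ret*, the GDNF receptor (0.35). Their summed intensity went from 48110 in the control to 49390 in the treated pool on replicate 1 and from 46730 to 53910 on replicate 2, a sum that the brightest probes dominate.

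Of 8 mesenchymal markers 5 were lower and 3 higher on both arrays, with a median of -0.20. *Tbx18* (-1.03) and *Tcf21* (-0.77), both transcription factors, fell past the FDR, where 1.15% of all genes did. The study describes *Tbx18* as lost in the ureteric mesenchyme of mutant embryos without mesenchymal *Ctnnb1*. It describes *Tbx2* and *Tbx3* as dependent on *Ctnnb1* in this mesenchyme. The *Tbx18* loss was seen in embryos, not in explants given IWP-2. As markers of cells *Tbx18*, *Tbx2* and *Tbx3* are thus not independent of WNT signalling. Whether the changes of the listed markers reflect cell number was not tested. The 3 higher on both arrays were *Pdgfrb*, a growth factor receptor and the highest of the list (0.50), *Twist1* (0.45) and *Vim* (0.31), none of which passed. The sum of the list went from 63040 to 58710 on replicate 1 and from 57040 to 58130 on replicate 2. Of 7 markers of kidney mesenchyme 0 were lower and 4 higher on both arrays. *Meox1*, a homeobox factor, rose past the FDR (0.96, adjusted p = 0.0286, limma), where 0.611% of all genes did. That list summed to 13890 in the control and 18380 in the treated pool on replicate 1, and to 16750 and 14970 on replicate 2.

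Of markers of other cells, all 6 endothelial and all 5 macrophage genes were higher on both arrays, as were 4 of 5 blood and 4 of 5 nerve genes. *Kdr* (0.74), *Cldn5* (0.65) and *Adgre1* (0.93) rose past the FDR, where 0.611% of all genes did. The summed endothelial signal was 10900 and 15170 on replicate 1 and 8420 and 13830 on replicate 2, control first. The macrophage sum was 7153 and 9090, then 5954 and 8770, and all members of these lists were above background. The part of these cell types in the ligands' values was not tested.

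The nearest tested genes on either side of each member, in the order of the RefSeq gene table, were compared as well. Of 17 such neighbours 1 passed, where 1.76% of all genes passed in either direction. This was *Cyp27a1*, which encodes the sterol 27-hydroxylase of bile acid synthesis and lies before *Wnt6* with 1 untested gene between them. It had log2 changes of -0.94 and -1.11 (mean -1.02, adjusted p = 0.0107, limma), a larger decrease than that of *Wnt6* itself. *Wnt10a*, the ligand on the other side of *Wnt6*, had 0.05. Around *Wnt5a*, *Erc2*, with 4 untested genes between, had a mean of 0.07. *Cacna2d3*, a calcium channel subunit gene with 3 between, had -0.41 and -0.42 (adjusted p = 0.113, limma). The median over the 17 neighbours was 0.00, and 6 were lower on both arrays, where 27.5% of all genes were.

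The 5 tested genes whose pair of changes lay nearest to that of *Wnt5a*, by Euclidean distance over the 2 arrays, were *Gpr176* (-1.25 and -1.19), *Gm1987* (-1.27 and -1.09), *Gli1* (-1.22 and -1.10), *Mgp* (-1.22 and -1.21) and *Hoxa13* (-1.30 and -1.22). Their distances were 0.05 to 0.08. *Gli1* is a target and effector of hedgehog signalling, *Mgp* encodes the matrix Gla protein, an inhibitor of calcification, *Gpr176* an orphan receptor and *Hoxa13* a homeobox factor of the hindgut and urogenital region. The likeness rests on 2 values per gene and describes size only.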

How the data were processed

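RNA of cultured E11.5 ureters was measured on 2 two-colour Agilent arrays, dye-swapped, on 1 slide read in 1 scan. For each spot the deposited array files list a mean and a background intensity, neither of them normalized, and a processed intensity (Feature Extraction 12.2.0.7 per the file headers; the labels name 10.7.3.1). The series table deposited by the authors holds a score made by the authors' software, a signed fold change with 1 decimal, used as an alternative only. Other deposited columns mark outlier spots and spots well above background.

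Analyses used R 4.3.3, limma 3.58.1 and version 1.17.8 of data.table. Background was corrected with normexp (offset 50), ratios were normalized by loess, outlier spots were dropped and the 4 spots of a probe averaged. Probes were kept if a share above 0.5 of spots was well above background in 1 condition on both arrays, and the brightest kept probe represented a gene. Treated over control was tested with lmFit and eBayes (2 arrays, 1 residual degree of freedom), with Benjamini-Hochberg adjustment over 20119 genes and an FDR of 0.05. Each pool has no sample beside its array partner, and nothing says whether pools came from separate dissections. The p-values, SE and confidence intervals rest on the spread between these arrays, which may be technical. In addition, eBayes draws the spread of each gene toward that of all genes. *Wnt9b*, with an SD of 0.01, thus has an SE of 0.098. The number of arrays limits the precision. Scripts were tested on simulated data. Members, lists and tests were chosen with earlier results of these data known. Named genes were the members, the other WNT ligands, those of the pathway lists that passed or were highest or lowest, nearest neighbours, and the 5 genes nearest to *Wnt5a*. Markers and other list members named by value were chosen after their values were seen. The sequence of 1 probe is not reported here.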

Additional observations from a re-analysis of the deposited data

How the results depend on the processing

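All 7 ligands kept a mean below 0 in the 12 settings tested, but not all settings could move it. The trended and robust prior and the fits of separate channels change only the test, so the mean stayed the same. It also stayed the same with no filter on dim probes and with each kept probe tested alone. The mean over all kept probes moved only *Wnt4* among the ligands. The count of members called lower was 0 with median centring, 0 with separate channels and a dye term, 2 with the mean over all kept probes, 3 with a trended and robust prior and 5 from the series table, against 1. At a fold change of 3 in the filter, 0 members passed. *Wnt5a* passed in 10 of the 12 settings. Median centring moved the median of all genes to 0.11 on replicate 1 and -0.14 on replicate 2. With it the mean of *Porcn* was -0.0613. Leaving out 1 array gave log2 changes from -0.08037 to 0.261 for *Porcn* and from -0.2286 to 0.2217 for *Wls*; 1 array leaves no residual degree of freedom, so it gives values with no test. The array itself pairs treated with control; with the channels fitted apart and no replicate block, *Wnt5a* had an adjusted p of 0.0471 (limma). The causes of these shifts were not tested.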
